A study of Mus musculus with 2 samples.

Results

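The genes described here are 10 transcripts linked with the mature state of dendritic cells: Ccr7, Fscn1, Ccl22, Ccl17, Socs2, Cacnb3, Apol7c, Zmynd15, Tbc1d4 and Tmem123. They were matched by symbol in the gene list of the 2021 library, where all 10 were found among 32285 gene rows. They were selected on levels measured in this same library, with earlier results of these data known, so the level of each gene in dendritic cells is a description and not a finding. The series holds 2 single-cell libraries of adult C57BL/6 mouse thymus, 1 from 2021 and 1 from 2024. Per the labels, the organ was dissociated with enzymes, cells carrying surface CD64 were sorted, and 3′ libraries were made on the 10x Genomics Chromium. Both libraries are of unmanipulated mice of the same strain and tissue, the labels name the cell type as macrophage, and they do not say how many mice entered a library. The rows of the 2024 library were not paired with gene names here, so every level below comes from the 2021 library, with 1 sample, no replicate and no test.

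Dendritic cells take up antigen in tissue in an immature state and then mature, lowering uptake and raising costimulatory molecules. CCR7, the receptor for CCL19 and CCL21, guides maturing cells along gradients of these chemokines, and fascin, encoded by Fscn1, bundles actin into the long protrusions of such cells. CCL17 and CCL22 are the ligands of CCR4, a receptor found on T cells. In the thymus, mature dendritic cells lie mainly in the medulla, where they present antigen to developing T cells.

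The 2021 library held 3214 barcodes with a median of 2157.5 UMIs, and 3188 passed a minimum of 500 UMIs and 300 genes and a maximum of 10% mitochondrial UMIs. The 2024 library, used for its depth only, held 2815 barcodes with a median of 5312 UMIs, and barcodes shared between the libraries were not analysed here. The kept cells formed 15 clusters when the 10 genes were left out of the genes used for clustering. Clusters were named from marker lists, and the names were rebuilt here and may differ from those of the study. The label of macrophage held for few cells: 357 were macrophage-like and 818 were dendritic-like, in 3 clusters. Cluster 10, with 125 cells, was the only cluster with all 10 of the mature dendritic markers raised that are not among the 10 genes, and it is called the mature cluster below. Its dendritic name rests largely on the same markers. Of the 16 dendritic markers 7 were raised in it, and of these only Flt3 is not also on the mature list. Cluster 1, with 546 cells, was led by Epcam, Cd209a and Wdfy4. Cluster 8, with 147 cells, was led by Cd209e and Cd209d, and was named plasmacytoid instead of dendritic when the clustering was finer. Fcgr1, which encodes CD64, gave 1 UMI in the mature cluster and 138 CPM (UMIs per 1000000 UMIs of the summed cells) in macrophage-like cells.

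All 10 genes were at their highest in the mature cluster. Together they gave 11886 CPM there (95% Poisson interval 11539 to 12241), 506 CPM in the other dendritic-like cells and 527 CPM in macrophage-like cells. Neutrophil-like cells, taken as the class that should lack them, gave 49.7 CPM, of which Tmem123 made up 40.9 CPM. The mature cluster held 3.92% of the kept cells and 65.2% of the UMIs of the 10 genes. Intervals given here cover counting error only. In summed counts, fewer expressing cells and less RNA per cell cannot be told apart, so shares of cells with a UMI are given beside the levels.

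**Figure D1:**
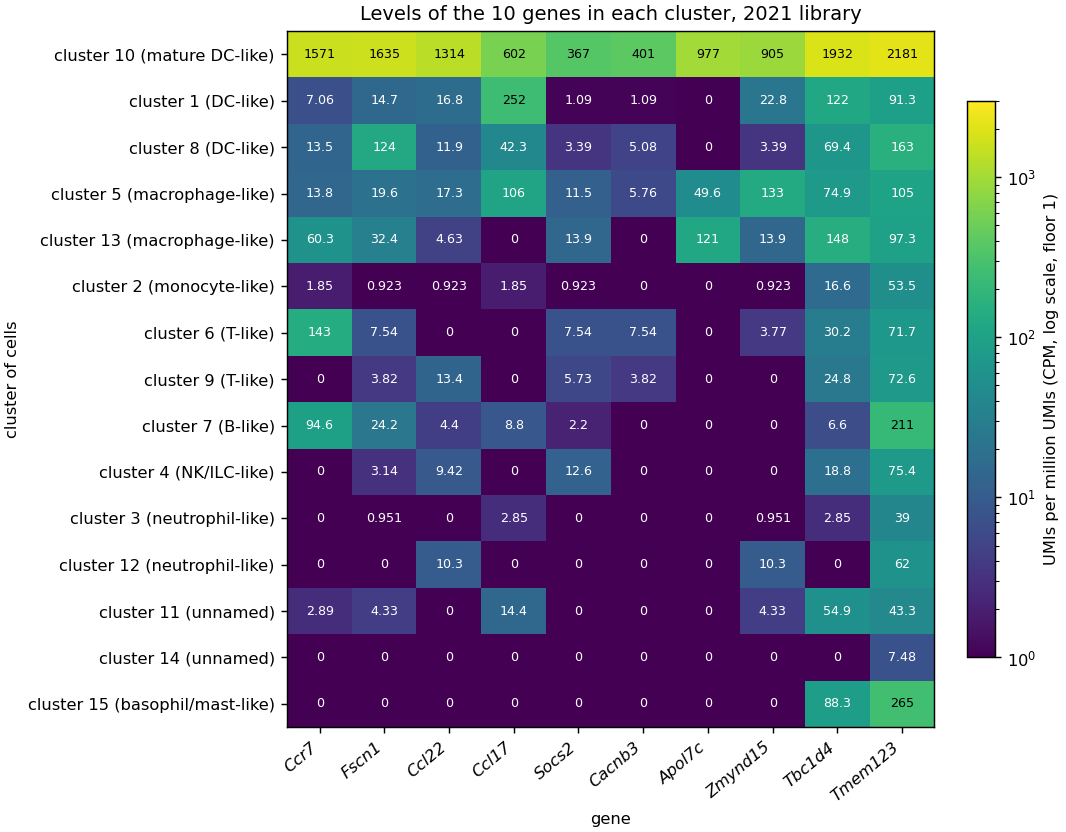
Levels of the 10 genes (columns) in each of the 15 clusters of the 2021 library (lines of the grid), in CPM on a logarithmic colour scale with the value printed in each cell. Every gene is highest in cluster 10; Ccl17 is also at 252 CPM in cluster 1, and Tmem123 is the only gene above 0 in every cluster.

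Ccr7 (ENSMUSG00000037944, GRCm38 chr11:99144196-99155077, minus strand) is the chemokine receptor of the set. In the 125 mature cells it ranged from 0 to 20 UMIs with a median of 4, and 106 of them held at least 1. Its level was 1571 CPM (1447 to 1704) in the mature cluster and 8.64 CPM in the other dendritic-like cells. The next levels were 143 CPM (101 to 197) in the T-like cluster 6 and 94.6 CPM (68.5 to 127) in B-like cells, 2 values whose intervals overlap. CCR7 is also the receptor by which naive lymphocytes enter lymphoid tissue. Cluster 6 had Rag1 and Dntt raised, and its cells were not assigned to the naive state here. The Ccr7 UMIs of cluster 6 were spread over 28 of 246 cells, none with more than 4, and those of the B-like cells over 32 of 211. Cluster 6 was shallow, with a median of 698.5 UMIs per cell. Cells of cluster 6 with a Ccr7 UMI gave 264 CPM (132 to 473) of the other mature dendritic markers. Those without gave 376 CPM (300 to 465), and these intervals overlap. T lineage markers were lower in the cells with Ccr7, at 5601 CPM (4905 to 6369) against 8527 CPM (8148 to 8918). The median depths of these cells were 1195 UMIs with Ccr7 and 674 without. The macrophage genes of C1q (48.1 against 340 CPM) and the cDC2 dendritic markers (96.2 against 407 CPM) were also lower in the cells with Ccr7. Monocyte-like cells held 2 Ccr7 UMIs, and 0 of 487 neutrophil-like cells held one, which at 3 counts allows a share of cells with a UMI of up to 0.616%. The median depth of neutrophil-like cells was 1714 UMIs, against 2988 UMIs in the mature cluster. The ligands of CCR7 were nearly absent from the sorted cells: Ccl19 gave 8 UMIs, 6 of them in the mature cluster, and Ccl21a gave 2. The scavenging receptor Ackr4 gave 0.

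The 2 chemokines of the set lie on chromosome 8, Ccl22 (ENSMUSG00000031779, GRCm38 chr8:94745590-94751699, plus strand) and Ccl17 (ENSMUSG00000031780, chr8:94810453-94812036, plus strand), with 58753 bases between them. The bases upstream of each are shown because this pair had the highest ratio and phi of co-detection within the mature cluster and yet was spread differently over the other cells. They are from RefSeq's table of promoters (GRCm38.p6, plus strand, chr8:94745434-94745589 and chr8:94810203-94810452), cut at the annotated start of the gene. Capitals mark a match to TTCNNNGAA, the letters of a STAT site.
Ccl22: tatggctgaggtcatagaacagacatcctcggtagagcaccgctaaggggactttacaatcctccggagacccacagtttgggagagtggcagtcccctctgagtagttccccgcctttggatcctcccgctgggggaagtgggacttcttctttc
Ccl17: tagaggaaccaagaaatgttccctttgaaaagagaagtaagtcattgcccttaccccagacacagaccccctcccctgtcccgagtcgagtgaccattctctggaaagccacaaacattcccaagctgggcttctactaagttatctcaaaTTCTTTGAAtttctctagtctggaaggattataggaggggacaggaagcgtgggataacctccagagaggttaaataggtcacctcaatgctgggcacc

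The table held windows of 250 bases before a RefSeq start for 7 of the 10 genes, 9 windows in all. By the gene positions used here, the Cacnb3 windows lie inside that gene. Those of Ccl22, Fscn1, Tmem123 and Apol7c run past the start of the gene. The Tmem123 windows also overlap each other, so the 9 are not separate upstream stretches. TTCNNNGAA, searched on both strands, was found in 1 of these 9 windows, that of Ccl17, 99 bases upstream of the start, and in 7.02% of all 32851 windows of the table. The NF-kB consensus, which is present in 3.90% of all windows, was found in 0 of the 9, as was TGANTCA, the letters of an AP-1 site, present in 6.75%. Such matches are letters only and do not show binding.

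Ccl22 was almost restricted to the mature cluster, at 1314 CPM (1200 to 1436), against 17.3 CPM (9.68 to 28.5) in the macrophage-like cluster 5 and 16.8 CPM (11.4 to 23.9) in cluster 1, whose intervals overlap. It was uneven between mature cells: 55 of 125 held a UMI, the median was 0, the highest cell had 74, and 10 cells held 68.8% of its UMIs there. The 10 highest cells for Ccr7 held 25.4% of its UMIs by comparison.

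Ccl17 was the gene with the largest share of its UMIs in the dendritic-like cells outside the mature cluster. It gave 602 CPM (526 to 686) in the mature cluster, 252 CPM (229 to 276) in cluster 1 and 42.3 CPM (27.4 to 62.5) in cluster 8, levels whose intervals do not overlap. Only 27.3% of its UMIs lay in the mature cluster and 59.2% lay in the other dendritic-like cells, whereas for Ccl22 these shares were 87.8% and 6.80%. In cluster 1, 85 of 546 cells held 463 Ccl17 UMIs, up to 42 in a cell. Those 85 cells gave 509 CPM of the mature dendritic markers, against 325 CPM in the cells of cluster 1 without Ccl17 and 6076 CPM in the mature cluster. Their cDC2 markers were at 1839 CPM, against 1615 CPM in the cells without it, and their cDC1 markers at 770 and 814 CPM, at median depths of 3808 and 3086 UMIs. In the mature cluster 39 of 125 cells held Ccl17, with a highest count of 37, and 10 cells held 64.0% of the UMIs. The macrophage-like cluster 5 gave 106 CPM of Ccl17, but its 92 UMIs came from 13 of 284 cells, and 48 of them from 1 cell that held no UMI of the complement genes C1qa, C1qb or C1qc. Ccr4, the receptor for both chemokines, gave 3 UMIs in all kept cells, and the scavenging receptor Ackr2 gave 0.

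Fscn1 (ENSMUSG00000029581, GRCm38 chr5:142960343-142973185, plus strand) was found in 113 of 125 mature cells, with a median of 4 UMIs and a highest count of 19. Its level was 1635 CPM (1508 to 1770) in the mature cluster. The next was 124 CPM (96.9 to 155) in cluster 8, where 42 of 147 cells held it, and the level in cluster 1 was 14.7 CPM (9.67 to 21.3). In cluster 8 the cells with Fscn1 gave 1487 CPM of the mature dendritic markers, against 688 CPM in those without, at median depths of 4027 and 3803 UMIs. Of those markers only Il4i1 was raised in cluster 8 as a whole, and the sum was not split by gene. The cells with Fscn1 also had more of the T lineage markers (507 against 281 CPM) and less of the cDC2 markers (1774 against 2826 CPM). Fscn1 and Ccl17 were thus distributed in opposite ways over the remaining dendritic-like clusters, Fscn1 being higher in cluster 8 and Ccl17 in cluster 1.

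Socs2, Cacnb3 and Tbc1d4 encode intracellular proteins. Socs2 (ENSMUSG00000020027, GRCm38 chr10:95385362-95417180, minus strand) encodes a suppressor of cytokine signalling. It gave 367 CPM (308 to 433) in the mature cluster and 1.65 CPM in the other dendritic-like cells, where 4 of 693 cells held it. In mature cells its counts were low, with a median of 1 and a highest of 6 UMIs. Cacnb3 (ENSMUSG00000003352, GRCm38 chr15:98630840-98644529, plus strand) encodes a beta subunit of voltage-gated calcium channels. It had 91.5% of its 164 UMIs in the mature cluster, the largest share of the 10 genes, and gave 401 CPM (340 to 471) there, against 2.06 CPM in the other dendritic-like cells. Tbc1d4 (ENSMUSG00000033083, GRCm38 chr14:101442360-101609191, minus strand) encodes a GTPase-activating protein for Rab proteins, best known from insulin-stimulated glucose uptake. It gave 1932 CPM (1794 to 2079) in the mature cluster, with a median of 4 and a highest of 21 UMIs, and was also found in cluster 1, at 122 CPM (107 to 139) in 110 of 546 cells. The macrophage-like clusters 13 and 5 gave 148 and 74.9 CPM of Tbc1d4, and 47.9 and 32.6 CPM without the cells that held at least 5 of the 10 genes. Of the other members of the SOCS family, Socs1 was also higher beside the 10 genes, as given with the gene lists, while Socs3 was level.

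Apol7c (ENSMUSG00000044309, GRCm38 chr15:77524852-77533316, minus strand), an apolipoprotein L gene, was the gene of the set with no UMI in the dendritic-like cells outside the mature cluster. It gave 977 CPM (879 to 1082) in the mature cluster. Of the other dendritic-like cells 0 of 693 held a UMI, which at 3 counts allows a share of cells with a UMI of up to 0.433% and does not limit the share of cells with a lower level of the transcript. Set against a limit of 3 counts over those 693 cells, its level was at least 792-fold higher in the mature cluster. Not every mature cell held it: 55 of 125 did, with up to 23 UMIs, and 10 cells held 49.9% of the UMIs. Of 12 other Apol genes in the list, Apol10b gave the most in the mature cluster, 4 UMIs. Its upstream bases (RefSeq, GRCm38.p6, chr15:77533317-77533565, minus strand) are shown because it was the gene with 0 UMIs in the other dendritic-like cells. Capitals mark 2 overlapping matches, on the opposite strand, to the interferon response element, searched on both strands as GAAA, any 2 bases and GAAA.
Apol7c: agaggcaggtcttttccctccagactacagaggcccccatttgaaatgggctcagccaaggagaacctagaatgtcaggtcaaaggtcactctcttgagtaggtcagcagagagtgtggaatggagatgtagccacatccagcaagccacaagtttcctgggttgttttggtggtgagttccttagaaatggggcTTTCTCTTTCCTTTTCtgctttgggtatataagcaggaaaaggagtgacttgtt

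The interferon response element was found in 1 of the 9 windows of the set, that of Apol7c, and in 2.98% of all windows. The only other clusters with Apol7c UMIs were the macrophage-like clusters 13 and 5, at 121 CPM (78.7 to 177) and 49.6 CPM (35.9 to 66.8). Of the 26 UMIs in cluster 13, 25 came from 1 cell, and of the 43 in cluster 5, 40 came from cells that held at least 5 of the 10 genes. Without such cells the levels were 4.79 and 3.63 CPM.

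Zmynd15 (ENSMUSG00000040829, GRCm38 chr11:70459433-70466202, plus strand), a gene for a zinc finger protein of the MYND type, gave 905 CPM (811 to 1006) in the mature cluster, where 81 of 125 cells held it. It differed from Apol7c in the macrophage-like cluster 5, at 133 CPM (110 to 159) in 55 of 284 cells. Here only 13 of 115 UMIs came from cells with at least 5 of the genes, and the level without those cells was 123 CPM. The 55 cells gave 10189 CPM of C1q, against 5083 CPM in the cells of cluster 5 without Zmynd15, so the gene was found in cells with more, not less, of this macrophage marker. Their median depth was 3698 UMIs, against 2432. Zmynd15 overlaps Cxcl16, which lies on the minus strand, by 552 bases, and whether the counting used strand is not given in the sources used here. Cxcl16, a chemokine gene, gave 477 CPM (432 to 526) in cluster 5 and 468 CPM (402 to 543) in the mature cluster. It gave 667 CPM in the cells of cluster 5 with Zmynd15 against 407 CPM in those without. The same values were 606 and 249 CPM in the mature cluster, and 406 and 117 CPM in cluster 1. The part of Cxcl16 reads in the Zmynd15 counts was not tested.

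Tmem123 (ENSMUSG00000050912, GRCm38 chr9:7764041-7794333, plus strand), which encodes a membrane mucin, had the largest share of its UMIs outside the dendritic-like cells of the 10 genes. It gave 2181 CPM (2034 to 2336) in the mature cluster, with a median of 6 and a highest of 21 UMIs, and 118 of 125 cells held it. It was found in all 15 clusters, with 54.1% of its UMIs in the mature cluster and 28.4% outside the dendritic-like cells. Its share in the mature cluster was still above the 27.3% of Ccl17. B-like cells gave 211 CPM (171 to 258) and neutrophil-like cells 40.9 CPM (30.1 to 54.4), where 8.42% of cells held a UMI.

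Markers of other cell types were also counted in the mature cluster. Of 10 macrophage markers, 7 were present, at 217 CPM together, with Mertk, Cd5l and Trem2 at 0, against 276 CPM in the other dendritic-like cells. The markers of the cDC1 subtype were at 535 CPM, against 724 CPM, with Xcr1, Clec9a, Tlr3, Snx22 and Gcsam at 0. Those of cDC2 were all present, at 393 CPM, against 1862 CPM in the other dendritic-like cells. The T lineage markers were higher in the mature cluster, at 442 CPM (377 to 514) against 126 CPM (113 to 141) in the other dendritic-like cells. Of their 165 UMIs in the mature cluster 108 were of Cd8a, which was found in 37 of 125 cells and which some dendritic cells also express. The other 9 markers of that list were at 153 CPM (116 to 198) against 42.0 CPM (34.2 to 50.9). Of the NK and ILC list, at 549 CPM against 512 CPM in the other dendritic-like cells, 198 of 205 UMIs were of Klrd1. Of 10 neutrophil markers 9 were present, at 7053 CPM. A single cell held 2538 of their 2635 UMIs, which were 30.7% of all UMIs in that cell, and it also held 9 of the 10 genes. Without it the neutrophil markers were at 265.5 CPM (215 to 324), against 488 CPM in the other dendritic-like cells. Without it Ccr7 was at 1598, Fscn1 at 1642 and Apol7c at 969 CPM, all inside the intervals given above. The part of RNA from other cells in the levels of the 10 genes was not tested.

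To compare cells at equal depth, each was thinned to 2000 UMIs, which left out 1439 shallower cells and kept 1749. In the mature cluster, 99 cells remained and held a median of 6 of the 10 genes; none of them held 0, 28 held 8 or more, and 4 held all 10. In every other cluster of at least 50 thinned cells the median was 0. At least 3 of the genes were found in 91 of the 99 mature cells, 91.9% (exact binomial interval 84.7 to 96.4), in 15 of 625 other dendritic-like cells, 2.40% (1.35 to 3.93), in 4 of 244 macrophage-like cells and in 0 of 198 neutrophil-like cells. Unthinned, the shares were 96.0%, 6.06%, 4.48% and 0%. The 15 dendritic-like cells outside the mature cluster held 3 or 4 of the genes, and none held 5 or more, against a median of 6 in the mature cluster.

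**Figure D2:**
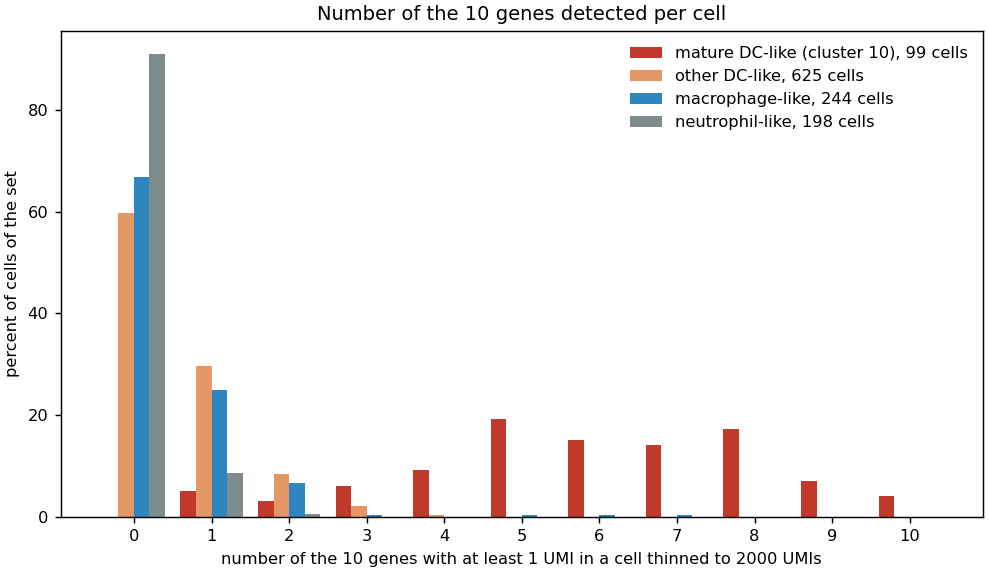
Percent of cells (vertical) by the number of the 10 genes with at least 1 UMI (horizontal) in cells thinned to 2000 UMIs, for the mature cluster (99 cells), the other dendritic-like cells (625), macrophage-like cells (244) and neutrophil-like cells (198). The mature cells peak between 5 and 8 genes, and the other 3 sets at 0.

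Co-detection of pairs was set against the number of cells expected if the 2 genes were found independently. Over the 724 thinned dendritic-like cells, all 45 pairs were found together more often than that. Each had an interval above 1, and the median ratio was 4.06. These cells pool the mature cluster with cells where the genes are sparse, and the genes were selected on levels in this library. An excess over independence follows from that selection and pooling, so these ratios are descriptions and not a finding. The ratio was largest for Socs2 and Cacnb3, found together in 28 cells where independence gave 2.80 (ratio 10.0, 6.65 to 14.5). It was smallest for Fscn1 and Ccl17, together in 27 cells where independence gave 17.1 (1.58, 1.04 to 2.30). Ccr7 and Fscn1 were together in 69 cells where independence gave 14.2.

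Within the mature cluster some of the genes were found in most cells, which left the ratio of their pairs little room above 1. For Ccr7 and Fscn1, found in 75 and 83 of 99 cells, it could not pass 1.19. Pairs of less often found genes had more room. Ccl17 and Socs2, in 31 and 43 cells, could reach 2.30 and had a ratio of 0.965. Ccl22 and Socs2 could reach 2.20 and had a ratio of 1.13. The median ratio was 1.08, and a low ratio here does not show that a pair was found independently. The phi coefficient over the same cells, which describes association at the given cell numbers, was above 0 in 41 of 45 pairs, with a median of 0.169 and a range of -0.05 to 0.477. Its median over all dendritic-like cells was 0.435. The 1 pair with an interval of the ratio above 1, and with the highest phi, was Ccl22 and Ccl17, together in 25 of 99 cells where independence gave 14.1 (1.77, 1.15 to 2.62). Socs2 and Cacnb3 were together in 28 cells where independence gave 18.7 (interval of the ratio 0.996 to 2.17, phi 0.383), and Ccr7 and Fscn1 were together in 68 where it gave 62.9 (phi 0.328). Among the 625 thinned dendritic-like cells outside the mature cluster the genes were sparse, and few pairs could be described. There Ccl22 and Ccl17 were together in 5 cells where independence gave 0.979 (5.11, 1.66 to 11.9), and Fscn1 and Ccl17 in 0 cells where it gave 4.57 (0 to 0.807). Of the 45 pairs in this set, these were the 1 with an interval above 1 and the 1 with an interval below 1. They rest on 5 and 0 cells. The set pools clusters 1 and 8, over which Ccl17 and Fscn1 were distributed in opposite ways. The shortfall of Fscn1 and Ccl17 below pooled independence cannot be told apart from that distribution. The 2 chemokines were found together beyond pooled independence in this set as well as in the mature cluster.

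**Figure D3:**
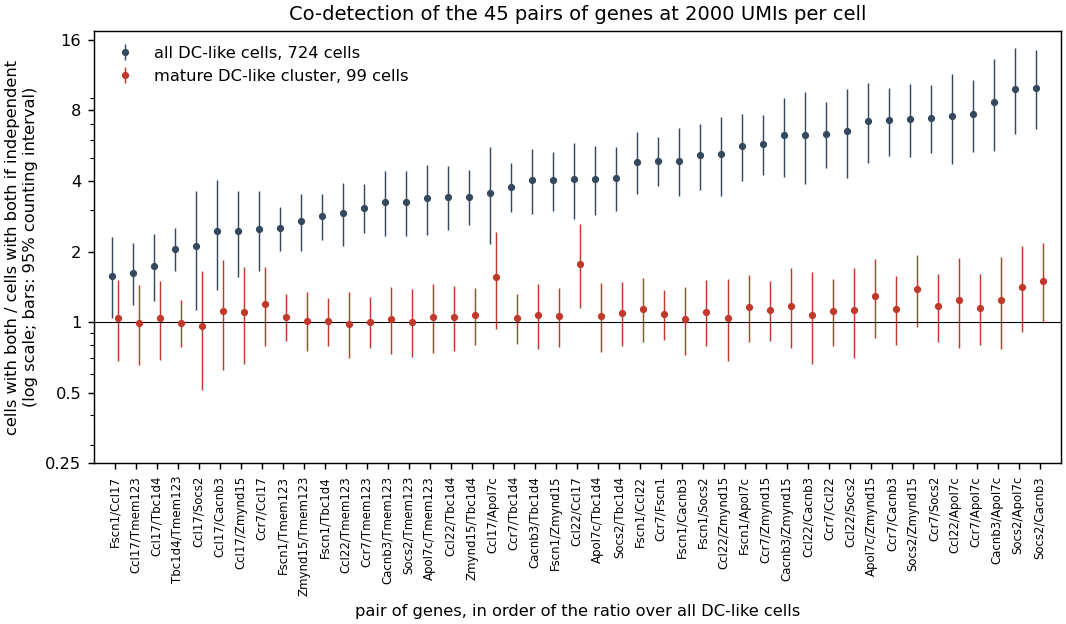
Ratio of cells with both genes to the number given by independence (vertical, logarithmic) for each of the 45 pairs (horizontal), over all dendritic-like cells (dark, 724 cells) and within the mature cluster (red, 99 cells), with 95% counting intervals. All dark intervals lie above 1, and of the red ones only that of Ccl22/Ccl17 does; red ratios of genes found in most mature cells cannot lie far above 1.

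The mature cells with a thinned UMI of Ccl17 or Ccl22 numbered 51 and those with neither 48, a division made after the pair values had been seen. Fscn1 was at 2051 CPM (1841 to 2279) in the former and 1206 CPM (1044 to 1385) in the latter. Apol7c was at 1088 CPM (936 to 1257) against 627 CPM (512 to 760), found in 27 and 15 cells. Ccr7 differed less, at 1584 CPM (1400 to 1786) against 1374 CPM (1202 to 1565), and Tbc1d4 was at 1909 and 1881 CPM. Cd40, the receptor for T cell help, was at 461 CPM (364 to 575) in 29 cells against 139 CPM (87.9 to 208) in 16. Cst3, which encodes cystatin C, was at 11390 CPM (10887 to 11910) against 5094 CPM (4756 to 5449). Il12b, a subunit of interleukin-12 and interleukin-23, had 1 UMI in the cells with either chemokine and 23 UMIs in the others, but these 23 came from 2 cells. Lyz2 was at 165 and 1145 CPM, where 119 of the 190 UMIs of the latter came from 1 cell. The cell rich in neutrophil RNA was among the 48. Without it Fscn1 was at 1199 CPM, Apol7c at 590, Cd40 at 146 and Cst3 at 5329 CPM in that set.

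Outside the mature cluster, 8 unthinned cells held 5 or more of the 10 genes, 6 macrophage-like and 2 dendritic-like. Their depth ran from 3998 to 12696 UMIs, 7 of the 8 held C1q UMIs, and 4 of the 6 macrophage-like cells were among the 6% with the highest Scrublet doublet scores. Of the 125 mature cells, 10 were in that 6%. The highest of the 8 had 76 UMIs of the 10 genes, 25 of them Apol7c and 22 Tbc1d4, together with 38 of C1q. Whether a droplet with 2 cells gave these counts was not tested.

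The dendritic-like cells that held at least 3 of the genes were then set against those that held none, to describe the other transcripts beside them. The former were 106 cells (91 of them mature, median 3269.5 UMIs) and the latter 373 (none mature, 3462 UMIs). Of 6998 other genes with at least 15 UMIs in total, 556 had a log2 ratio of CPM + 10 of at least 1, which is 7.95%, and 820 had one of at most -1, which is 11.7%. These counts have no replicate check. Higher genes were 40.4% of those past either limit with CPM and 62.4% with median-of-ratios scaling, which moved the median of all genes from -0.17 to 0.05, so the balance between higher and lower genes, and calls close to a limit, depend on the scaling. The comparison largely follows the border of the mature cluster, which was clustered on these same cells and named from markers that include Relb, Il4i1, Cd200, Samsn1, Serpinb6b, Nudt17, Anxa3 and Mreg, and it only describes what lay beside the 10 genes.

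Costimulation and checkpoint genes were higher in 11 of 14 and lower in 1, with a median log2 ratio of 2.24 beside -0.17 for all genes. Tnfrsf4, which encodes OX40, was at 272 against 2.19 CPM (log2 ratio 4.53). Cd200 was at 423 against 11.7 CPM (4.32), and Cd274, which encodes PD-L1, at 258 against 14.6 CPM (3.44). Cd83 was at 641 against 131 CPM (2.21) and Cd40 at 288 against 51.2 CPM (2.29). The classical pair Cd80 and Cd86 was low in counts, 11 and 26 UMIs in the 106 cells, with ratios of 1.18 and 1.13. Tnfrsf9 had 16 UMIs in the cells with the genes and 0 in those without, so against a floor of 3 counts over those cells it was at least 20.4-fold higher, and with it at that limit the median of the list was 2.19. Vsir, which encodes VISTA, was the lower one (-1.30).

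The NF-kB pathway was higher in 8 of 13 genes and lower in 1, with a median of 1.29, which was 0.82 when cells with 2 or more of the 10 genes were set against those with 0 or 1. Relb, the partner of p52 in the alternative pathway, was at 521 against 28.5 CPM (3.78). Birc2 (3.46), Traf1 (2.36), Birc3 (2.13), the inhibitor Nfkbia (2.04) and Rel (1.82) were also higher. Nfkb2, which encodes the precursor of p52, had a ratio of 0.93, and Nfkb1, which encodes that of p50, was lower, at 61.6 against 153 CPM (-1.18). Among cytokine and signalling genes of mature dendritic cells, 12 of 13 were higher, with a median of 2.71, or 2.66 with the 2 genes at 0 set to the limit. The higher ones include Cxcl16 (2.20), which overlaps Zmynd15 of the 10 genes, and reads shared between them were not tested. Ccl5 was at 4477 against 25.6 CPM (6.98). Gadd45b had a ratio of 3.92, Samsn1 of 3.66 and Il4i1, an amino acid oxidase, of 3.31, while Crlf2, a subunit of the TSLP receptor, was lower (-1.26). Adcy6, with 35 UMIs against 0, was at least 44.7-fold higher against the same floor.

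Of 17 further genes known from mature dendritic cells, 15 were higher and none lower, with a median of 3.31. Cd63 was at 882 against 5.85 CPM (5.81), Nudt17 at 336 against 1.46 CPM (4.92) and Serpinb6b at 342 against 2.19 CPM (4.85). Ass1 (-0.08) and Rabgap1l (0.51) were the 2 that were not higher. In the SOCS family, Socs1 had a ratio of 1.33, and Socs3, Socs4 and Socs6 lay between -0.41 and 0.03.

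Uptake receptors and other genes of the immature state went the other way, with 9 of 13 lower, 1 higher and a median of -1.71, or -1.30 with the 1 gene at 0 set to the limit, and -0.90 for 2 or more genes against 0 or 1. Cd209a, Mgl2, Clec10a and Clec9a of this list were among the markers by which cluster 1 or 8 was named dendritic. So were Naaa, Kmo and Xcr1 of the lineage list below. Their lower level in the mostly mature cells partly follows from that naming. All of these genes but Kmo are also cDC1 or cDC2 markers, so subtype and maturity cannot be told apart. Clec10a was at 14.0 against 197 CPM (-3.11), Cd209a at 115 against 706 CPM (-2.52), Cx3cr1 at 11.2 against 93.6 CPM (-2.29) and Lyz2 at 322 against 1253 CPM (-1.93). Ly75, which encodes the uptake receptor DEC-205, was higher, with 15 UMIs against 5 (1.93). Of the dendritic lineage genes 4 of 13 were lower and none higher, with a median of -0.61: Naaa (-2.43), Kmo (-1.67), Itgax (-1.10) and Xcr1, which had 0 UMIs against 32 and was at least 2.78-fold lower against the floor of 3 counts. The lineage factors Zbtb46 (-0.09), Irf4 (0.14) and Batf3 (0.70) and the receptor Flt3 (0.53) were within the limits.

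MHC class II genes as a list were level, with a median of -0.05 and 9 of 11 within the limits, the sign of that median depending on the setting. H2-Aa was at 7666 against 6362 CPM (0.27) and Cd74 at 22585 against 23306 CPM (-0.05). The chaperone genes split, with H2-DMb1 lower (-1.92), H2-DMa at -0.95 and H2-DMb2 higher (1.04), though H2-DMb1 and H2-DMb2 are alike in sequence and how the counting assigned their reads is not known here. The actin and adhesion list, which fits the role of Fscn1, was mixed, with 4 of 14 higher, 3 lower and a median of 0.13. Marcks (2.56), Icam1 (2.11), Myo1g (1.77) and Cd44 (1.58) were higher, and the lower genes included Itgb2 (-2.04) and Coro1a (-1.20), while Actb was at 0.24. Of 9 cell division genes, 3 were lower and none higher (median -0.70, or -1.21 with 1 CPM added), and of 9 interferon response genes Isg15 (1.14) and Usp18 (1.06) were higher, with a median of 0.41.

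**Figure D4:**
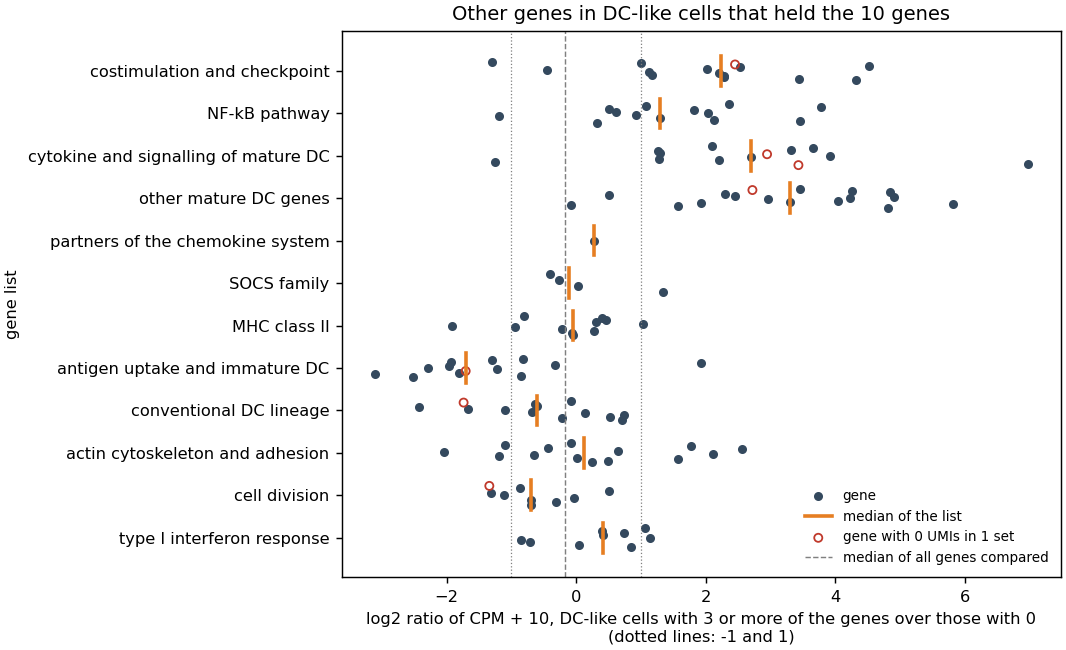
Log2 ratio of CPM + 10 (horizontal) between dendritic-like cells with 3 or more of the 10 genes (106 cells) and those with 0 (373 cells), for each gene of 12 lists (vertical); orange bars are list medians, open red circles genes with 0 UMIs in 1 set, and the dashed line the median of all 6998 genes. The first 4 lists have medians of 1.29 to 3.31, and the uptake list has -1.71.

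Set by the number of the 10 genes detected, the other transcripts differed in course. Relb was at 28.5, 56.0, 98.8, 327 and 699 CPM in cells with 0, 1, 2, 3 to 5 and 6 to 10 of the genes, so it was higher at each step. Cd83 followed the same order, from 131 to 779 CPM, and Cd40 from 51.2 to 365 CPM. Intervals of neighbouring sets overlapped for Relb between 1 and 2 genes, for Cd83 between 0 and 1, and for Cd40 at every step. Il4i1 was at 129, 205, 428, 1508 and 1242 CPM. H2-Aa was highest in the middle, at 6362, 7501, 8895, 9823 and 5681 CPM, and Cd74 at 23306, 24537, 28260, 28908 and 16770 CPM. The uptake gene Cd209a was at 706, 471, 442, 240 and 0 CPM, and Mgl2 at 381, 474, 433, 286 and 21.5 CPM. The 5 sets held 373, 190, 55, 49 and 57 cells, of which 0, 5, 3, 34 and 57 were in the mature cluster. H2-Aa was thus highest in cells with 3 to 5 of the genes (interval 9359 to 10304, against 8498 to 9305 with 2). For Cd74 the intervals with 3 to 5 (28107.5 to 29724.5) and with 2 (27549.8 to 28983.7) overlapped. The cells with 6 to 10 had the least H2-Aa and Cd74 and no Cd209a UMI. At a fixed depth the number of genes detected also depends on chance capture, so neighbouring sets overlap in state.

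**Figure D5:**
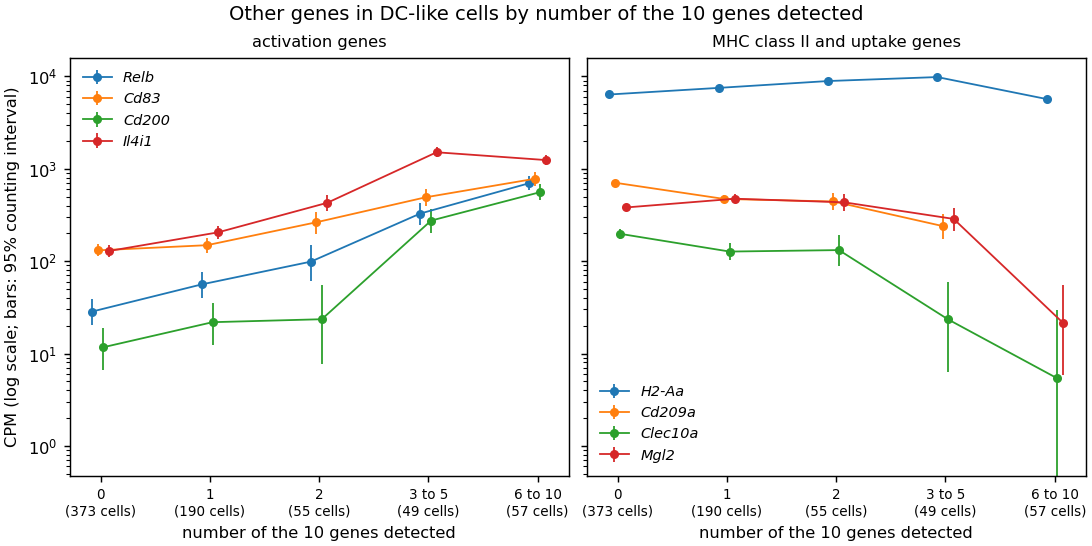
CPM (vertical, logarithmic) of 8 other genes in dendritic-like cells by the number of the 10 genes detected at 2000 UMIs (horizontal, with cell numbers), with 95% counting intervals. Relb, Cd83 and Cd200 are highest with 6 to 10 genes, H2-Aa is highest with 3 to 5, and Cd209a, at 0 with 6 to 10, has no point there.

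The genes whose pattern was most like the mean of the 10 were ranked by Pearson's r over cells of log-scaled counts. Cells of the library share depth effects and free RNA, so r is descriptive. Over all 3188 kept cells, the 12 highest of 9942 genes were Nudt17 (r = 0.702), Il4i1, Basp1, Tspan3, Cd200, Relb, Serpinb6b, Fabp5, Fxyd2, Tm4sf5, H2-M2 and Tmem176a (0.452). Over the 818 dendritic-like cells they were Cd63 (0.818), Nudt17, Anxa3, Gadd45b, Ccl5, Fabp5, Serpinb9, Spint2, Tspan3, Samsn1, Serpinb6b and Tnfrsf4 (0.628), and 4 genes were in both. Ccl5 was in the second ranking only: it was at 5431 CPM in the mature cluster, 26.3 CPM in the other dendritic-like cells and 1841 CPM outside them, where cytotoxic lymphocytes also make it. Fabp5, a fatty acid binding protein, was at 6057, 376 and 350 CPM. The lowest 6 in dendritic-like cells were Ly6e, H2-DMa, H2-DMb1, Ms4a6c, Alox5ap and Fxyd5, with r from -0.436 to -0.502. Among the 10 genes themselves, r with the mean of the other 9 over dendritic-like cells was highest for Ccr7 (0.839) and Fscn1 (0.794) and lowest for Ccl22 (0.597) and Ccl17 (0.248). Within the mature cluster these values ran from 0.174 for Tbc1d4 to 0.485 for Apol7c.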

How the data were processed

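Per the labels, both libraries are of CD64-sorted cells of adult C57BL/6 mouse thymus. The deposited matrices hold unnormalized UMI counts for each barcode, which the authors made with Cell Ranger 6.0.0 (2021) and 8.0.0 (2024) per the file headers and with mm10 per the submitters' processing notes. Intronic and strand settings are not given in the sources used here. The members and gene lists were chosen with earlier results of these data known.

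Cells of the 2021 library with at least 500 UMIs, 300 genes and at most 10% mitochondrial UMIs were scaled to 10000 UMIs, log-transformed and clustered with scanpy 1.11.5 (2000 variable genes without the members, 30 components, 15 neighbours, Leiden resolution 0.5). A cluster took the name with the most markers raised, at least 3; plasma cell markers were counted with the B lineage after a first look. Scrublet (in scanpy) called 3 cells doublets (0.0941%), too few to have worked, so none was removed and an alternative left out the 6% of highest scores.

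Levels are UMIs per 1000000 UMIs of the summed counts with exact 95% Poisson intervals, and shares have exact binomial (Clopper-Pearson) intervals; for a count of 0, the limit on a share and the floor of a fold are 3 counts. Cells were thinned to 2000 UMIs by sampling without replacement. Ratios used 10 CPM added to both sides and genes with at least 15 UMIs. The genes to name were all 10 members, the 12 of highest r over kept cells and over dendritic-like cells, the 6 of lowest r, and from each list up to 4 of most UMIs and those past a log2 ratio of 1 in size, of which the text gives a selection. The genes of the chemokine division were chosen after their values were seen. Scripts were tested on simulated data. Positions are from GENCODE vM21 (GRCm38). With gene names for 1 library only, edgeR could not be run and there is no p-value. A gene of the actin and adhesion list is not reported here by name.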

Additional observations from a re-analysis of the deposited data

How the results depend on the processing

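No paired analysis was possible because 1 library only was paired with gene names; for the same reason no replicate could be left out. The share of the 10 genes' UMIs in dendritic-like cells was 83.3%, and in the mature cluster 65.2%. These shares were 84.6% and 63.7% with the 10 genes among the clustering genes, 78.9% and 64.0% with the stricter cell filter, 88.1% and 67.9% without the highest doublet scores, and 82.0% and 67.4% with cells weighted equally. With Leiden resolution 1.0 the first was 79.3%. Dendritic-like cells with at least 3 of the genes were 14.6%, and 17.8% at resolution 1.0, 17.4% with the stricter filter, 22.2% for 2 or more genes and 12.02% for 4 or more. The mature cluster was found in every clustering tried, with 111 to 124 cells. Pairs with an interval above 1 were 45 of 45, and 1 when independence was taken within each cluster. There, pairs of genes found in most mature cells have little room above 1, and other pairs have more. Genes beside the members were 556 higher and 820 lower. With 2 or more genes against 0 or 1, 231 were lower, and the list medians were 0.82 for the NF-kB pathway and -0.90 for uptake. With 50 UMIs in total they were 306 and 499, from 3408 genes compared. The cell division median was -1.21 with 1 CPM added and -1.17 with thinning to 1000 UMIs. With 1 CPM added 1533 were lower, and with median-of-ratios scaling 474 were lower. Of the 12 genes most like the members over all cells, 7 were the same with thinned values. The cause of these differences was not tested, other than the number of genes compared. The cells of 5 or more genes and the cell of neutrophil RNA were left out after seeing the data; without the latter no level of the 10 genes left its interval. One library, of a median of 2171.5 UMIs per kept cell, limits every level.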
